A study of Homo sapiens with 6 samples.

Results

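The G2 and mitosis genes are a set of 49 genes whose products act when a dividing cell passes from the end of DNA replication through mitosis. They were taken from a list of names and matched to the gene names of a table of read counts, in which all 49 were found among 59608 genes, and all 49 were among the 19111 genes with enough counts to be tested. RNA was sequenced from HepG2, a widely used line grown from a human liver cancer, in 6 libraries of 2 groups. In every library endogenous VEZF1, a zinc finger transcription factor, had been targeted for removal with an sgRNA carried by a lentivirus, and a form of VEZF1 was then put back: VEZF1-WT, the normal protein, in 3 libraries, and VEZF1-2A, in which both serines that carry the sugar O-GlcNAc are replaced by alanine, in the other 3. No library of cells with VEZF1 left in place or without any VEZF1 put back was analysed here, so the comparison asks whether the loss of the sugar sites changes the RNA of these genes. Most of the 49 genes moved together from library to library, with high and low libraries in both groups, and none passed the test of the difference between the groups.

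As background, entry into mitosis is driven by the kinase CDK1 bound to a B-type cyclin. Aurora kinases, kinesins and kinetochore proteins then build the spindle and attach chromosomes to it, and the ubiquitin ligase APC/C, once the spindle checkpoint is satisfied, marks securin and cyclin B for destruction so that chromosomes separate. Most of these genes are transcribed mainly in G2 and mitosis and are kept low in G1 by the DREAM complex, which binds a promoter element called the cell cycle genes homology region (CHR) and acts near CCAAT boxes bound by NF-Y, and in the liver they are low in resting hepatocytes and high in dividing cells. In bulk RNA, fewer cells in G2 or mitosis and less RNA of these genes per cell cannot be told apart.

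The promoters of the members are shown because those letters are a property that the matching of names did not use. A RefSeq promoter on GRCh38.p14, running from 250 bases before to 50 bases after the start of transcription, was at hand for 41 of the 49 members. Each member was counted by a single promoter, while the shares of all promoters were taken without that limit. The letters TTTGAA, the core of the CHR, were found on either strand (TTCAAA on the other) in 29 of these 41 promoters (70.7%), against 15.2% of all 35116 promoters of the same length. CCAAT, the NF-Y box, with ATTGG on the other strand, was found in 30 (73.2%), against 34.6% of all promoters, and both sets of letters together in 24 (58.5%), against 5.9%. A run of GGGGGG or its complement on the other strand, searched for comparison, was found in 2 (4.88%), against 18.8%. In 15 members a CHR core lay wholly within the 80 bases before the start. Below are 8 stretches of up to 120 bases before the start that hold both sets of letters, one each for a cyclin, an APC/C activator, a CDK subunit, a motor, a proliferation marker, a cytokinesis factor and a pair of spindle proteins, cut off where the gene of the count table begins. Capitals mark the CHR core and the NF-Y box on either strand, read 5′ to 3′ on the strand of the gene, and a match is a description of letters and not a bound site.
CCNB2: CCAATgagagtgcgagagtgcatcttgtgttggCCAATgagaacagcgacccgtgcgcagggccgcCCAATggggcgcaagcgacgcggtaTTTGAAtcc
CDC20: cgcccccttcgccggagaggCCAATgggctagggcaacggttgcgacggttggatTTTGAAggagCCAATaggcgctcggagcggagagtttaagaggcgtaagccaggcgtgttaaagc
CKS2: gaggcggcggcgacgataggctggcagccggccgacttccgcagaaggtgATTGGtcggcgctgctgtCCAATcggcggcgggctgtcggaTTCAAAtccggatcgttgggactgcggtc
KIF11: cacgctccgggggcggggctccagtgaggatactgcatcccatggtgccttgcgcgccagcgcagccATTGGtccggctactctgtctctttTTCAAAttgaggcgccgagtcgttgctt
MKI67: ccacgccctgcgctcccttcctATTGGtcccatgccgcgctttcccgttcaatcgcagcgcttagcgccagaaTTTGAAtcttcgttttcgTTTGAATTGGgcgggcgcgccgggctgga
ECT2: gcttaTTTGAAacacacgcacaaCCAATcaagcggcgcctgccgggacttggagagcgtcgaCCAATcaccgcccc
DLGAP5: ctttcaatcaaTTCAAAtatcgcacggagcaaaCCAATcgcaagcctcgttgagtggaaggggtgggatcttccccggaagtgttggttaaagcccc
CKAP5: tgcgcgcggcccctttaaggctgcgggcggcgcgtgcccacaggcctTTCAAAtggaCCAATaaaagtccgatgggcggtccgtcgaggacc
These stretches lie at chr15:59105026-59105125, plus strand, for CCNB2, at chr1:43358861-43358980, plus strand, for CDC20, at chr9:89311075-89311194, plus strand, for CKS2, and at chr10:92593010-92593129, plus strand, for KIF11. Those of MKI67, ECT2, DLGAP5 and CKAP5 lie at chr10:128126424-128126543, minus strand, at chr3:172750606-172750681, plus strand, at chr14:55191609-55191705, minus strand, and at chr11:46846309-46846400, minus strand. In the stretch of MKI67 the second CHR core and the NF-Y box after it share a base. In the stretches of CCNB2, CKS2 and KIF11 the CHR core is the match nearest to the start, with the NF-Y box farther away. In those of CDC20, MKI67, ECT2, DLGAP5 and CKAP5 an NF-Y box is the match nearest to the start within the stretch. Past the stretch, the promoters of DLGAP5 and CKAP5 hold a CHR core nearer to the start, beginning at positions 3 and 17.

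**Figure D1:**
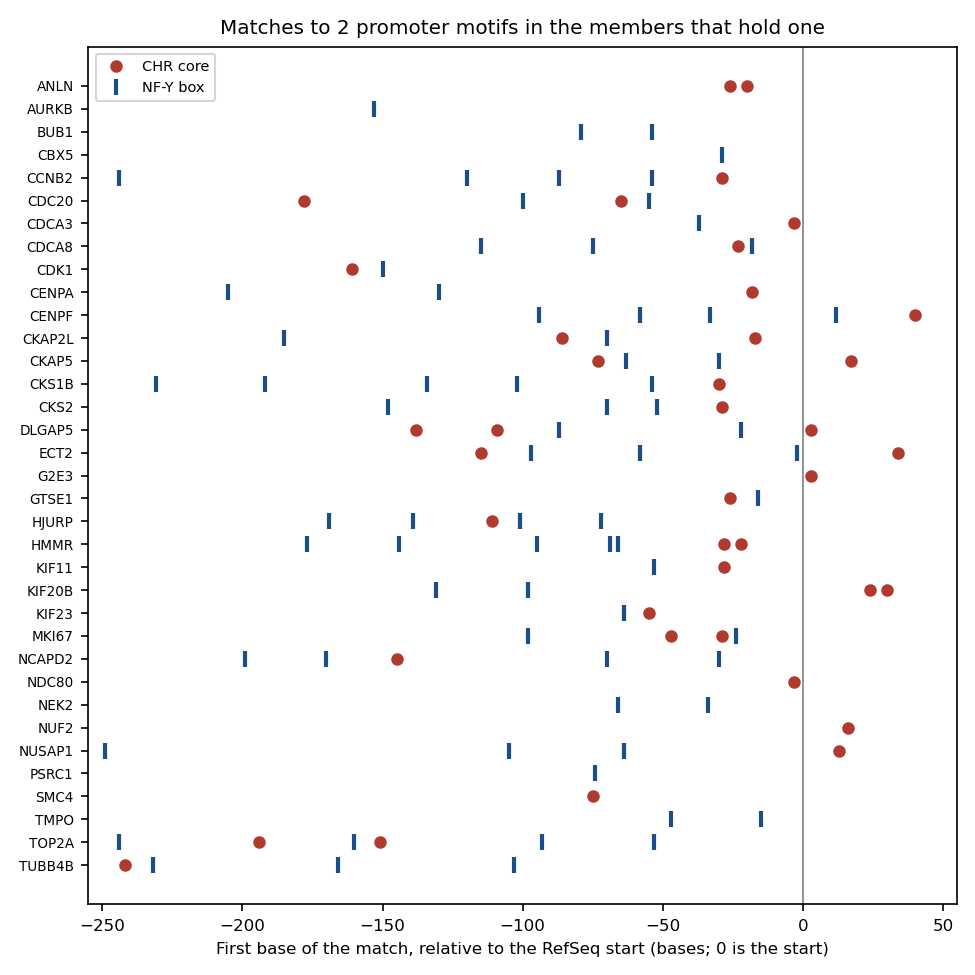
Position of each match to the CHR core (red circles) and the NF-Y box (blue bars) in the 35 members whose RefSeq promoter holds at least one of them; the horizontal axis is the distance of the first base of the match from the start of transcription, in bases. CHR cores of 15 members lie wholly within the 80 bases before the start, and NF-Y boxes appear over most of the window.

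The 6 libraries held from 28756765 to 57199396 counts each. VEZF1-WT libraries 1 to 3 held 47414775, 35272710 and 57199396 counts and VEZF1-2A libraries 1 to 3 held 28756765, 39565464 and 33966492. The VEZF1-WT libraries were mostly deeper, but the groups overlapped, since VEZF1-WT 2 had fewer counts than VEZF1-2A 2. VEZF1 itself had 2807, 1623 and 2253 counts in VEZF1-WT libraries 1 to 3 against 1346, 1944 and 1288 in VEZF1-2A libraries 1 to 3, with a log2 fold change of 0.12 ± 0.13 (SE) and overlapping groups. Reads of the endogenous gene and of the form put back were not told apart, so these counts do not check the removal. All 11 liver cell markers were detected, with albumin (ALB) at 2332 TPM on average, while PTPRC, the common leukocyte antigen, had from 0 to 4 counts a library. Of the other blood markers reported here, CD3E had 0 to 2 counts, while CD68, a lysosomal protein best known from macrophages, was at 174 TPM. The endothelial markers PECAM1, VWF and CDH5 had 0 to 132 counts and the fibroblast and stellate cell markers COL1A1, COL1A2, PDGFRB and DCN 0 to 72.

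Every member was well covered, with 188 to 31031 counts per gene and library, and the levels spanned a wide range. Levels are compared between genes per length, as TPM (counts divided by exon length and scaled to the same total in each library), and the text otherwise gives CPM (counts scaled to the library size after TMM). The highest mean levels per length were those of TUBB4B, a beta tubulin (321 TPM), HMGB2, a DNA-bending chromatin protein (308 TPM), and TPX2, which activates Aurora A on the spindle (211 TPM). ANP32E, a histone chaperone, stood at 211 TPM and TOP2A, the topoisomerase that untangles sister chromatids, at 198 TPM. The lowest were CDCA3 (3.20 TPM), a trigger of entry into mitosis, and TTK, the spindle checkpoint kinase also called MPS1 (4.19 TPM). As the plot of levels shows, the spread between libraries was small beside the spread between genes.

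**Figure D2:**
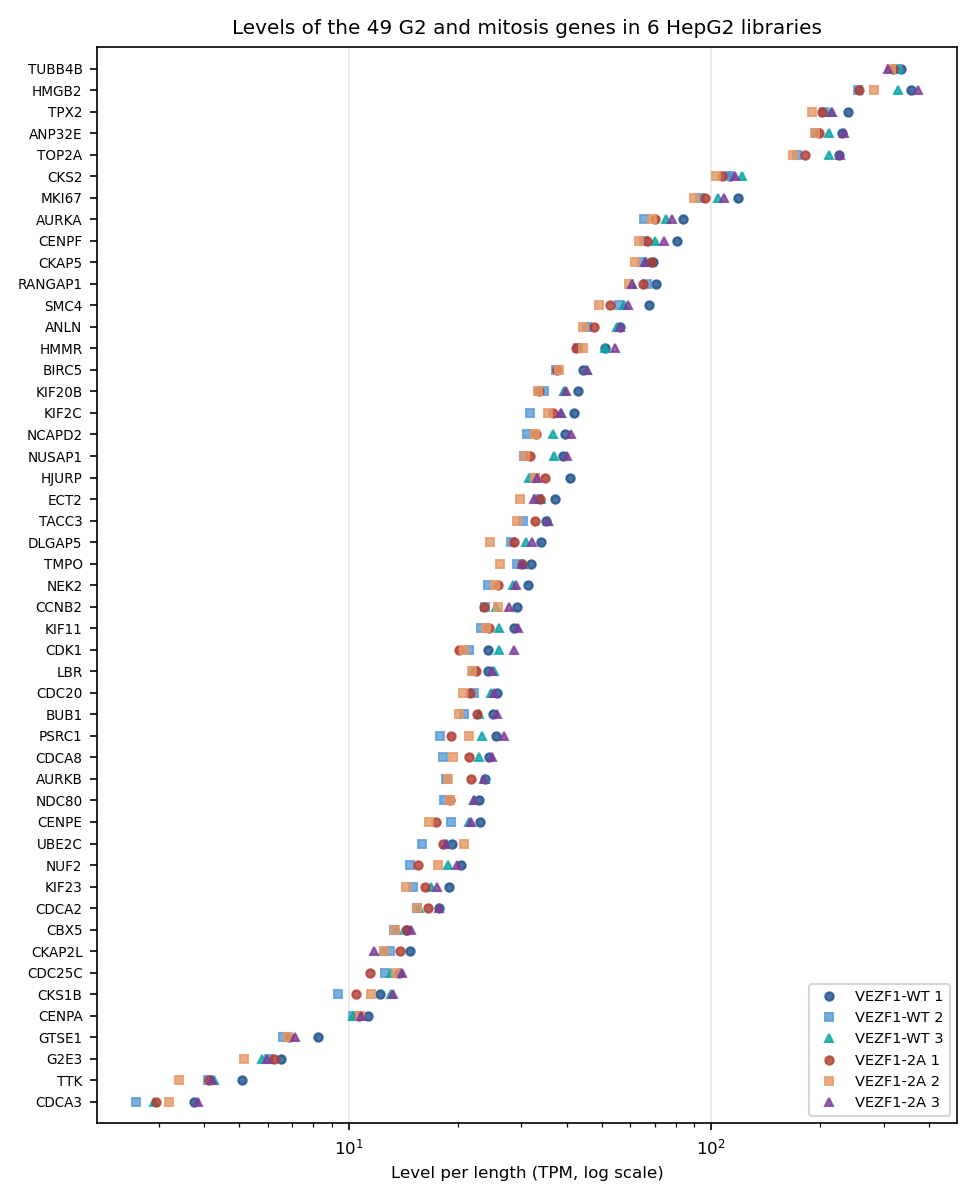
Level per length (TPM, log axis) of each of the 49 members in each of the 6 libraries, ordered by mean; blue and teal symbols are VEZF1-WT libraries 1 to 3 and red, orange and purple symbols are VEZF1-2A libraries 1 to 3. Means run from 3.20 TPM for CDCA3 to 321 TPM for TUBB4B, and for most genes VEZF1-WT 1, VEZF1-WT 3 and VEZF1-2A 3 lie to the right.

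The members rose and fell together between libraries of the same group. A score was computed for each library as the mean over the 49 genes of log2(CPM + 0.5) minus the mean of that gene over the 6 libraries. It was 0.13, -0.15 and 0.08 in VEZF1-WT libraries 1 to 3 and -0.10, -0.12 and 0.16 in VEZF1-2A libraries 1 to 3. Both groups thus held libraries above and below 0, and their scores overlapped. The mean score was 0.02 ± 0.15 (SD, n = 3) for VEZF1-WT and -0.02 ± 0.16 (SD, n = 3) for VEZF1-2A, a difference of 0.04 that is smaller than the SD within groups. The 49 genes took 0.536%, 0.443% and 0.505% of all counts in VEZF1-WT libraries 1 to 3 and 0.456%, 0.441% and 0.530% in VEZF1-2A libraries 1 to 3. The same 3 libraries, VEZF1-WT 1, VEZF1-WT 3 and VEZF1-2A 3, were thus the highest by this share, with 48, 40 and 46 of the 49 genes above their own mean. In VEZF1-WT 2, VEZF1-2A 1 and VEZF1-2A 2 only 1, 4 and 3 of the 49 were above it.

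For 40 of the 49 members (81.6%) those 3 libraries were the highest 3 of the 6, against 11.3% of all genes tested, a pattern that was seen in these data and then counted. VEZF1-2A 3 held the highest value of 27 members and VEZF1-WT 1 that of 19, while VEZF1-WT 2 held the lowest value of 23 and VEZF1-2A 2 that of 19. Among all genes tested, VEZF1-2A 3 was the highest library for 19.7% and VEZF1-WT 2 the lowest for 16.7%. Depth went with this order only in part. VEZF1-WT 3 and VEZF1-WT 1 were the deepest libraries (57199396 and 47414775 counts) and VEZF1-2A 1 the shallowest (28756765). VEZF1-2A 3 had 33966492 counts and VEZF1-WT 2 had 35272710. The share of mitochondrial counts was 7.94%, 8.03% and 8.28% in VEZF1-WT libraries 1 to 3 and 8.29%, 8.55% and 8.54% in VEZF1-2A libraries 1 to 3. What set these libraries apart was not tested.

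**Figure D3:**
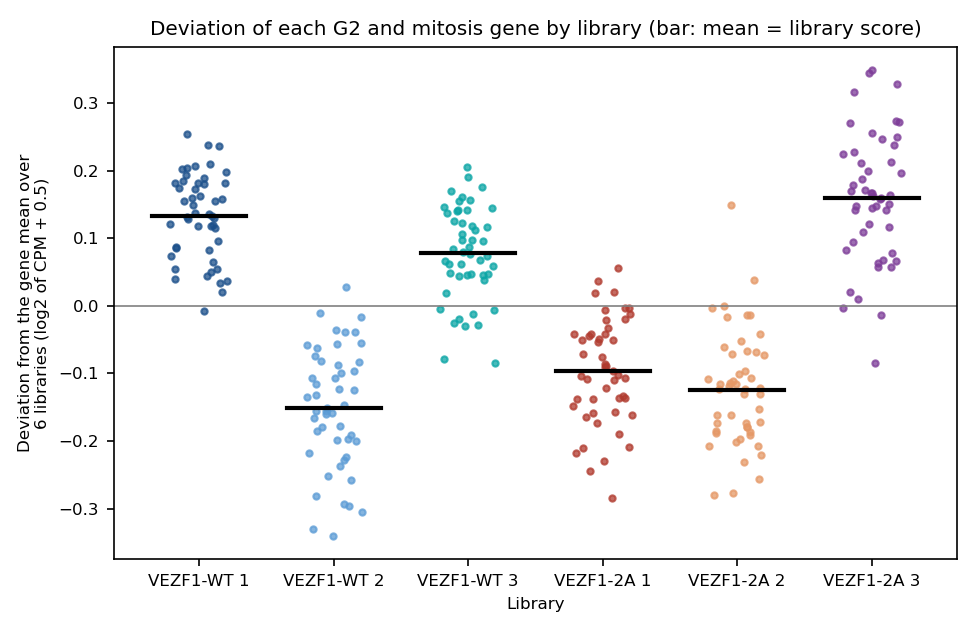
Deviation of each of the 49 members from its own mean over the 6 libraries (vertical axis, log2 of CPM + 0.5) by library (horizontal axis); each point is a gene, shifted sideways at random, and the black bar is the mean, the library score. The bars stand at 0.13, 0.08 and 0.16 in VEZF1-WT 1, VEZF1-WT 3 and VEZF1-2A 3 and below 0 in the other libraries.

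PSRC1 and HMGB2 had the widest range over the libraries. PSRC1, a microtubule-associated protein of the spindle (chr1:109279556-109283186), was measured at 28.5, 19.7 and 27.1 CPM in VEZF1-WT libraries 1 to 3 and 21.3, 24.2 and 31.6 CPM in VEZF1-2A libraries 1 to 3. The highest library, VEZF1-2A 3, was 1.59 times the lowest, VEZF1-WT 2. HMGB2 (chr4:173331376-173334432) was measured at 335, 237 and 321 CPM in VEZF1-WT libraries 1 to 3 and 238, 267 and 369.9 CPM in VEZF1-2A libraries 1 to 3, again with VEZF1-2A 3 highest and VEZF1-WT 2 lowest, 1.56 times apart. TUBB4B had the narrowest range, 0.12 on the log2 scale, and CKAP5, a microtubule polymerase whose promoter stretch holds the same letters as those of the cyclin, ranged over 0.16. The median range over the 49 genes was 0.37 and over all genes tested 0.35.

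No member passed edgeR's quasi-likelihood test of VEZF1-WT against VEZF1-2A. The p-values were adjusted by the Benjamini-Hochberg method over all 19111 genes. The adjusted p was 0.9996 for each of the 49 and the smallest of all genes had the same value, with 0 genes under the threshold of 0.05 (0%). At an unadjusted p under 0.05, 0 of the 49 members were higher in VEZF1-WT, against 159 of all genes (0.832%), and 0 were lower, against 249 of all genes (1.3%). For 0 of the 49 did the CPM of the groups not overlap, against 3.5% of all genes higher in VEZF1-WT and 3.86% lower. DESeq2 and limma voom likewise gave 0 members at an unadjusted p under 0.05. The log2 fold change (VEZF1-WT over VEZF1-2A) lay above 0 for 38 of the 49 (77.6%) and for 50.1% of all genes, with a median of 0.04 for the members and 0.00 for all genes. It ran from -0.12 for CDCA3 to 0.19 for TTK. For single members the text gives the p of an exact two-sided permutation test of log2(CPM + 0.5), which cannot go below 0.1 with 3 libraries against 3. The plot of fold changes shows an interval that crosses 0 for each of the 49.

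When the replicate number entered the fit as a block, 3 of the 49 were higher in VEZF1-WT with an unadjusted p under 0.05, against 1.79% of all genes, and 0 lower. These were SMC4, ECT2 and CENPE, with log2 fold changes of 0.16, 0.11 and 0.18 and an edgeR adjusted p of 0.999 for each. A single library also moved the count. Without VEZF1-2A 3, 8 members were higher in VEZF1-WT with an unadjusted p under 0.05, against 2.29% of all genes, and 0 at the adjusted threshold. These were CDC20, CDK1, KIF20B, DLGAP5, TOP2A, TPX2, SMC4 and CENPE. The median log2 fold change of the members then was 0.14. Without VEZF1-WT 2 it was 0.12, and without VEZF1-WT 1 or VEZF1-2A 2 it turned to -0.01 in both cases. The number of members with a fold change above 0 moved with it, from 38 to 20 without VEZF1-WT 1, 22 without VEZF1-2A 2 and 47 without VEZF1-2A 3.

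**Figure D4:**
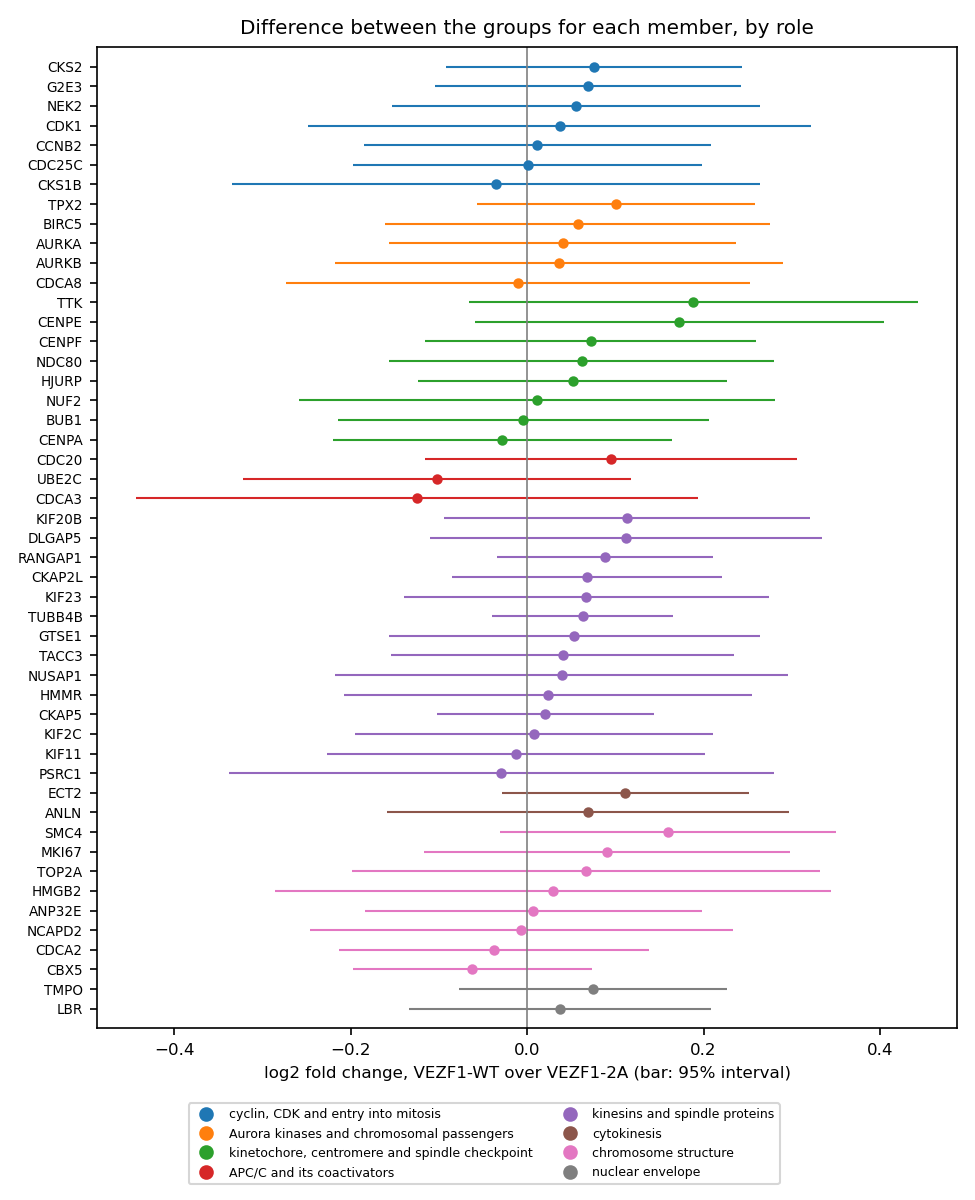
Log2 fold change (VEZF1-WT over VEZF1-2A, horizontal axis) of each of the 49 members from edgeR, grouped and coloured by role; bars are 95% intervals from the standard errors. Each of the 49 intervals crosses 0, and 38 of the 49 points lie above 0.

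Cyclin, CDK and mitotic entry genes are the drivers of the switch into mitosis. Of the 7 members, 0 passed the test, 6 had a fold change above 0, and the median was 0.04. CKS2, a small subunit that docks CDK1 on its substrates, had the highest level per length of the 7 (112 TPM). It was measured at 27.3, 26.7 and 30.6 CPM in VEZF1-WT libraries 1 to 3 and 25.7, 25.0 and 29.6 CPM in VEZF1-2A libraries 1 to 3, so that the groups overlapped (log2 fold change 0.08 ± 0.09, SE, exact permutation p = 0.5). CDK1 itself was measured at 37.5, 32.8 and 41.7 CPM in VEZF1-WT libraries 1 to 3 and 30.7, 32.2 and 46.5 CPM in VEZF1-2A libraries 1 to 3. Its lowest and its highest library, VEZF1-2A 1 and VEZF1-2A 3, belonged to the same group. CCNB2, a B-type cyclin, was measured at 31.5, 25.3 and 28.6 CPM in VEZF1-WT libraries 1 to 3 and 25.3, 27.9 and 31.6 CPM in VEZF1-2A libraries 1 to 3, with VEZF1-WT 1 and VEZF1-2A 3 nearly equal. The interval of its log2 fold change ran from -0.19 to 0.21. CDC25C, the phosphatase that activates CDK1, shares exon positions with FAM53C, whose counts were 201% of its own, so its fold change (0.00 ± 0.10, SE) is uncertain. CKS1B, the paralogue of CKS2, NEK2, a centrosome kinase, and G2E3, a ubiquitin ligase, had log2 fold changes of -0.04 ± 0.15, 0.06 ± 0.11 and 0.07 ± 0.09 (SE).

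Aurora kinases and their partners correct chromosome attachment and build the spindle. Of these 5 members, 4 had a fold change above 0, with a median of 0.04, and for all 5 VEZF1-WT 1, VEZF1-WT 3 and VEZF1-2A 3 were the highest 3 libraries. TPX2 was measured at 337, 286 and 314 CPM in VEZF1-WT libraries 1 to 3 and 284, 269 and 322 CPM in VEZF1-2A libraries 1 to 3. VEZF1-2A 3 lay above VEZF1-WT 3, and the groups overlapped (log2 fold change 0.10 ± 0.08, SE, exact permutation p = 0.4). AURKA, the kinase of spindle poles, was measured at 96.2, 74.2 and 89.9 CPM in VEZF1-WT libraries 1 to 3 and 79.6, 79.4 and 94.3 CPM in VEZF1-2A libraries 1 to 3. BIRC5, or survivin, which targets the chromosomal passenger complex to centromeres, was measured at 66.3, 55.2 and 70.6 CPM in VEZF1-WT libraries 1 to 3 and 55.8, 57.3 and 71.8 CPM in VEZF1-2A libraries 1 to 3. The lowest library of both was VEZF1-WT 2. AURKB, the kinase of that complex, ranged over 0.44 and CDCA8, or borealin, over 0.53 on the log2 scale of CPM. The log2 fold changes of AURKA, BIRC5, AURKB and CDCA8 were 0.04 ± 0.10, 0.06 ± 0.11, 0.04 ± 0.13 and -0.01 ± 0.13 (SE).

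Kinetochore, centromere and checkpoint genes hold chromosomes on the spindle and delay anaphase until all are attached. Of the 8 members, 6 had a fold change above 0, with a median of 0.06. CENPE, a kinesin that moves chromosomes to the spindle equator (chr4:103105349-103198445), was measured at 89.6, 73.6 and 86.9 CPM in VEZF1-WT libraries 1 to 3 and 67.3, 65.3 and 89.5 CPM in VEZF1-2A libraries 1 to 3. VEZF1-2A 3 lay within the range of VEZF1-WT while the other VEZF1-2A libraries lay below it, and the log2 fold change was 0.17 ± 0.12 (SE, exact permutation p = 0.3). TTK (chr6:80003887-80042527) was measured at 9.13, 7.27 and 7.91 CPM in VEZF1-WT libraries 1 to 3 and 7.34, 6.15 and 7.93 CPM in VEZF1-2A libraries 1 to 3. VEZF1-2A 3 lay above VEZF1-WT 2 and VEZF1-WT 3, and the log2 fold change was 0.19 ± 0.13 (SE, exact permutation p = 0.5), the largest of the 49, at one of the lowest levels. CENPF, which binds kinetochores late in G2, had the highest level per length of the 8 (70.1 TPM) and was measured at 369.8, 295 and 334 CPM in VEZF1-WT libraries 1 to 3 and 301, 291 and 358 CPM in VEZF1-2A libraries 1 to 3. VEZF1-WT 1 and VEZF1-2A 3 were its highest libraries (log2 fold change 0.07 ± 0.10, SE, exact permutation p = 0.6). CENPA, the histone H3 variant that marks centromeres, was measured at 8.66, 7.75 and 8.14 CPM in VEZF1-WT libraries 1 to 3 and 8.06, 8.24 and 8.75 CPM in VEZF1-2A libraries 1 to 3. Its groups overlapped (log2 fold change -0.03 ± 0.10, SE, exact permutation p = 0.7), and SLC35F6, which shares exon positions with it, had a count of its own that was 176% of that of CENPA. NDC80 and NUF2, which bind microtubules at the outer kinetochore, HJURP, the chaperone of CENPA, and BUB1, a checkpoint kinase, had log2 fold changes between -0.0043 (BUB1) and 0.06 (NDC80).

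The APC/C role gathers genes tied to this ligase, which ends mitosis by marking proteins for destruction. Of the 3 members CDC20, the activator held back by the spindle checkpoint, had a fold change above 0 and UBE2C and CDCA3 had one below. CDC20 was measured at 20.3, 17.3 and 20.2 CPM in VEZF1-WT libraries 1 to 3 and 16.8, 16.4 and 20.9 CPM in VEZF1-2A libraries 1 to 3. VEZF1-2A 3 was its highest library, and the log2 fold change was 0.09 ± 0.11 (SE, exact permutation p = 0.6). UBE2C, the ubiquitin-conjugating enzyme that works with APC/C, was measured at 9.72, 7.94 and 9.78 CPM in VEZF1-WT libraries 1 to 3 and 9.09, 10.5 and 9.86 CPM in VEZF1-2A libraries 1 to 3. Here VEZF1-2A 2, low for most members, was the highest library (log2 fold change -0.10 ± 0.11, SE, exact permutation p = 0.4). CDCA3 (chr12:6844793-6852066) was measured at 8.28, 5.67 and 6.69 CPM in VEZF1-WT libraries 1 to 3 and 6.45, 7.12 and 8.99 CPM in VEZF1-2A libraries 1 to 3, with VEZF1-2A 3 highest and VEZF1-WT 2 lowest. Its log2 fold change, -0.12 ± 0.16 (SE, exact permutation p = 0.6), was the lowest of the 49, and GNB3, which shares exon positions with it, had a count of its own that was 19.9% of that of CDCA3.

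Kinesins and spindle proteins were the largest role, with 14 members. Of these 12 had a fold change above 0, with a median of 0.05. TUBB4B was measured at 268, 257 and 272 CPM in VEZF1-WT libraries 1 to 3 and 251, 252 and 259 CPM in VEZF1-2A libraries 1 to 3. VEZF1-2A 3 lay within the range of VEZF1-WT, and the log2 fold change was 0.06 ± 0.05 (SE, exact permutation p = 0.2). RANGAP1, the activator of the Ran GTPase that sits on kinetochores in mitosis, was measured at 169, 158 and 151 CPM in VEZF1-WT libraries 1 to 3 and 154, 143 and 153 CPM in VEZF1-2A libraries 1 to 3. It did not share the common order, since VEZF1-WT 3 was the lowest of its group and VEZF1-2A 2 the lowest of all (log2 fold change 0.09 ± 0.06, SE, exact permutation p = 0.3). KIF11, the motor that pushes spindle poles apart, was measured at 56.2, 44.9 and 53.1 CPM in VEZF1-WT libraries 1 to 3 and 47.6, 47.4 and 60.7 CPM in VEZF1-2A libraries 1 to 3. KIF20B, a motor of cytokinesis, was measured at 115, 91.8 and 109.5 CPM in VEZF1-WT libraries 1 to 3 and 89.4, 90.2 and 113 CPM in VEZF1-2A libraries 1 to 3. DLGAP5, or HURP, which stabilizes spindle fibres at chromosomes, was measured at 48.0, 39.2 and 45.2 CPM in VEZF1-WT libraries 1 to 3 and 40.0, 34.8 and 47.8 CPM in VEZF1-2A libraries 1 to 3. In each of the last 3 genes VEZF1-2A 3 lay above VEZF1-WT 3. Their log2 fold changes were -0.01 ± 0.11, 0.11 ± 0.11 and 0.11 ± 0.11 (SE). CKAP2L, a spindle protein, went against the order, with its lowest value in VEZF1-2A 3 (26.6 CPM), and had a log2 fold change of 0.07 ± 0.08 (SE), against 0.02 ± 0.06 (SE) for CKAP5. KIF2C, KIF23, NUSAP1, TACC3, HMMR and GTSE1 had log2 fold changes between 0.01 and 0.07, and PSRC1 had one of -0.03 ± 0.16 (SE).

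The cytokinesis role held 2 members, with KIF20B counted among the kinesins. ECT2, which activates RhoA where the furrow forms (chr3:172750682-172821474), was measured at 79.9, 71.0 and 76.3 CPM in VEZF1-WT libraries 1 to 3 and 72.1, 64.5 and 73.8 CPM in VEZF1-2A libraries 1 to 3. The values of VEZF1-2A 1 and VEZF1-2A 3 lay above that of VEZF1-WT 2, so the groups overlapped (log2 fold change 0.11 ± 0.07, SE, exact permutation p = 0.3). ANLN, a scaffold of the contractile ring, was measured at 132, 106 and 134 CPM in VEZF1-WT libraries 1 to 3 and 110.5, 105 and 139 CPM in VEZF1-2A libraries 1 to 3. VEZF1-2A 3 was its highest library and the log2 fold change was 0.07 ± 0.12 (SE, exact permutation p = 0.9).

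Chromosome structure genes compact and untangle chromosomes. Of the 8 members 5 had a fold change above 0, with a median of 0.02. SMC4, a core subunit of condensin (chr3:160399274-160434954), had the smallest p of the 49 and was measured at 216, 176 and 192 CPM in VEZF1-WT libraries 1 to 3 and 167, 157 and 199 CPM in VEZF1-2A libraries 1 to 3. VEZF1-2A 3 lay above VEZF1-WT 2 and VEZF1-WT 3, and the log2 fold change was 0.16 ± 0.10 (SE, edgeR p = 0.130, exact permutation p = 0.3). TOP2A was measured at 565, 426 and 551 CPM in VEZF1-WT libraries 1 to 3 and 449, 423 and 600.0 CPM in VEZF1-2A libraries 1 to 3. MKI67, the proliferation marker Ki-67 that coats mitotic chromosomes, was measured at 598, 464 and 546 CPM in VEZF1-WT libraries 1 to 3 and 479, 454 and 578 CPM in VEZF1-2A libraries 1 to 3. For both, VEZF1-2A 2 was the lowest and VEZF1-2A 3 among the highest 2. HMGB2 had a log2 fold change of 0.03 ± 0.16 (SE, exact permutation p = 1). CBX5, the heterochromatin protein HP1 alpha, was measured at 84.8, 77.5 and 83.2 CPM in VEZF1-WT libraries 1 to 3 and 84.7, 79.5 and 92.2 CPM in VEZF1-2A libraries 1 to 3. CDCA2, which brings a phosphatase to chromosomes late in mitosis, was measured at 25.8, 22.1 and 23.6 CPM in VEZF1-WT libraries 1 to 3 and 23.8, 22.5 and 27.2 CPM in VEZF1-2A libraries 1 to 3. Both had a fold change below 0 and overlapping groups, -0.06 ± 0.07 (SE, exact permutation p = 0.5) for CBX5 and -0.04 ± 0.09 (SE, exact permutation p = 0.6) for CDCA2. TOP2A, MKI67, ANP32E and NCAPD2, another condensin subunit, had log2 fold changes of 0.07 ± 0.14, 0.09 ± 0.11, 0.01 ± 0.10 and -0.01 ± 0.12 (SE). The nuclear envelope members were TMPO, which encodes lamina-associated LAP2, and LBR, the lamin B receptor. TMPO was measured at 106, 96.0 and 106 CPM in VEZF1-WT libraries 1 to 3 and 99.4, 87.3 and 106 CPM in VEZF1-2A libraries 1 to 3 (log2 fold change 0.07 ± 0.08, SE, exact permutation p = 0.5), and LBR had a log2 fold change of 0.04 ± 0.09 (SE).

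Other genes of the same pathways were read from the same fit. Of 35 other kinetochore, centromere and checkpoint genes, 33 had a fold change above 0, with a median of 0.07. The count above 0 was 24 without VEZF1-2A 2, 26 without VEZF1-WT 1 and 35 without VEZF1-WT 2. Only CENPW, a centromere histone-fold protein, had an unadjusted p under 0.05 (log2 fold change 0.17 ± 0.08, SE, edgeR p = 0.0425, exact permutation p = 0.2, adjusted p 0.9996). All 14 other condensin and cohesin genes had a fold change above 0, with a median of 0.06 and 0 at an unadjusted p under 0.05. That count was 9 of 14 without VEZF1-2A 2, and without VEZF1-WT 1 the median was 0.016 with 12 of 14 above 0. Of 21 other mitotic kinases, cyclins and regulators and 24 other spindle, kinesin and cytokinesis genes, 15 and 21 had a fold change above 0, and again 0 had an unadjusted p under 0.05. The counts above 0 were 10 and 17 without VEZF1-2A 2, 11 and 14 without VEZF1-WT 1, and 18 and 23 without VEZF1-WT 2. Without VEZF1-2A 3, 2.29% of all genes had an unadjusted p under 0.05, higher in VEZF1-WT. So did 5 of the kinetochore list (14.3%) and 3 of the condensin and cohesin list (21.4%). The same held for 1 of the kinases and regulators (4.76%) and 5 of the spindle list (20.8%). With the replicate block 1.79% of all genes did. The counts were then 4 for the kinetochore list (11.4%) and 1 each for the spindle list (4.17%) and the condensin and cohesin list (7.14%). The scores of these 4 lists had the same sign as those of the members in each library. VEZF1-WT 1, VEZF1-WT 3 and VEZF1-2A 3 were the highest 3 libraries for 68.6%, 92.9%, 71.4% and 66.7% of their genes.

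S phase genes, which copy DNA before G2, scored 0.10, -0.08 and 0.06 in VEZF1-WT libraries 1 to 3 and -0.07, -0.13 and 0.12 in VEZF1-2A libraries 1 to 3, with the same signs as the members. Of 43, 33 had a fold change above 0. An unadjusted p under 0.05, higher in VEZF1-WT, was reached by 2 (4.65%), against 0.832% of all genes. The first count fell to 21 without VEZF1-2A 2. The second rose to 10 (23.3%) without VEZF1-2A 3, against 2.29% of all genes, and to 4 (9.3%) with the replicate block, against 1.79%. CHAF1B, a subunit of the chromatin assembly factor of replicating DNA, was measured at 14.01, 13.5 and 14.3 CPM in VEZF1-WT libraries 1 to 3 and 12.1, 11.4 and 11.9 CPM in VEZF1-2A libraries 1 to 3. Its groups did not overlap (log2 fold change 0.24 ± 0.08, SE, edgeR p = 0.0140, exact permutation p = 0.1, adjusted p 0.9996). CCNE2, cyclin E2, had a log2 fold change of 0.36 ± 0.14 (SE, edgeR p = 0.0284, exact permutation p = 0.2, adjusted p 0.9996) and its groups overlapped, with VEZF1-WT 2, low for the members, as its highest library. APC/C core subunits, which are present through the cycle, and G1 cyclins and CDK inhibitors had scores within a range of 0.07 and 0.04 over the libraries, against 0.31 for the members. The median range of single genes was 0.21 for the APC/C core and 0.36 for the G1 list, against 0.37 for the members. The narrow score of the G1 list thus does not mean that its genes were steady. The transcription regulators of these genes, among them the E2F, DREAM and NF-Y subunits, had scores within a range of 0.10, with 13 of 21 fold changes above 0. Their single genes had a median range of 0.32. The liver cell markers scored -0.13, -0.16 and 0.23 in VEZF1-WT libraries 1 to 3 and -0.19, 0.05 and 0.20 in VEZF1-2A libraries 1 to 3, an order that differs from that of the members. The median log2 fold change of these 11 was -0.07, with 4 above 0, and 0 above 0 without VEZF1-WT 3.

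**Figure D5:**
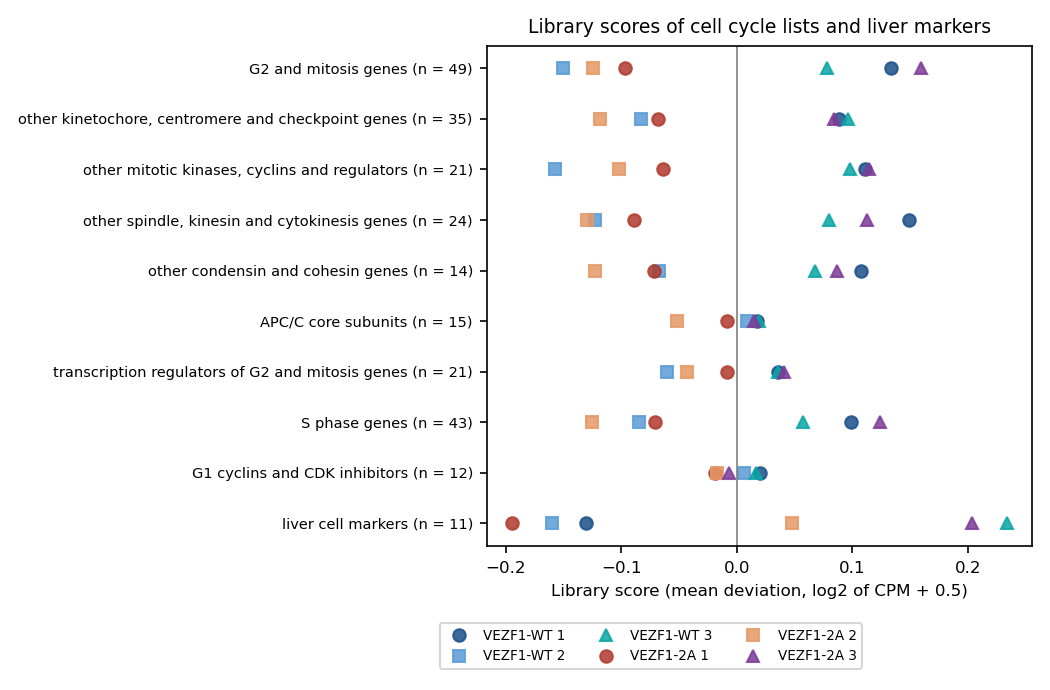
Library score (horizontal axis, mean deviation in log2 of CPM + 0.5) of the members and of other lists, 1 symbol for each library, with the number of genes tested in brackets. The mitosis and S phase lists place VEZF1-WT 1, VEZF1-WT 3 and VEZF1-2A 3 above 0, the APC/C core and G1 lists lie near 0, and the liver markers have another order.

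Overlapping genes limit some of these values. Of the 49 members 18 share exon positions with another gene, and for 9 the counts of those genes themselves came to over 10% of the count of the member: CDC25C, CENPA, NUSAP1, NCAPD2, KIF2C, TMPO, CKAP2L, HMMR and CDCA3. Without these 9 the median log2 fold change of the members was 0.05 and the difference in mean score 0.05. Reads of members and of named pseudogenes could be exchanged for 15, but for 3 only (CKS1B, UBE2C and NCAPD2) did the counts of the pseudogenes themselves come to over 1% of the count of the member.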

How the data were processed

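RNA of HepG2 cells was measured in 6 libraries, 3 with VEZF1-WT and 3 with VEZF1-2A, grouped and numbered by their labels. The authors deposited 1 table of raw counts per gene, without normalization. The build was GRCh38 per the submitters' processing notes, while the aligner, counting program, annotation release and strand setting are not given in the sources used here. mRNA libraries were made with a SMARTER kit. Without a known strand setting, reads of overlapping genes cannot be told apart. Of 59613 lines with data, 5 from a broken entry (ANK2) were left out. Between 65.7% and 67.5% of counts from 11 to 100 were even, so counts may not be independent, and the spread between libraries was used in every test.

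The fit was made with edgeR 4.0.16 in R 4.3.3: filterByExpr (minimum count 10, minimum total 15), TMM, glmQLFit and glmQLFTest (prior count 0.125), two-sided, with Benjamini-Hochberg adjustment over 19111 genes and a threshold of 0.05. Scores used log2(CPM + 0.5). Alternatives used DESeq2 1.42.0 and limma 3.58.1, other scalings and filters, halved or thinned counts, the replicate block and each library left out. Scripts were tested on simulated data. Figures used matplotlib 3.10.9 in Python 3.11.15. The members, role lists and other lists were chosen with earlier results of these data known. Named in full were the 5 members with the smallest p in each direction, the highest TPM of each role and the 2 widest ranges, and of other lists genes with an unadjusted p under 0.05, except 1 that is not reported here. Other members are named with values as members of a role.

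Nothing says whether libraries came from separate cultures, so p-values measure only the spread between these libraries. No pair of libraries of 1 group agreed within sampling noise (6.86 to 27.0 for chi-square over its degrees of freedom). Residuals of libraries with the same number were correlated over genes (r = 0.105, 0.187 and 0.478 for numbers 1, 2 and 3). This is why the replicate block is given beside results, although VEZF1-WT 2 correlated more with VEZF1-2A 1 (0.268). Over the members alone, r was -0.192, 0.122 and 0.607 for numbers 1, 2 and 3. The largest r over the members, 0.672, was between VEZF1-WT 2 and VEZF1-2A 1. The block is thus less well founded for the members than for all genes.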

Additional observations from a re-analysis of the deposited data

How the results depend on the processing

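The 49 members had 0 calls at the adjusted threshold under every alternative run. Numbers of genes moved more: without a filter on low counts, 16 genes passed the adjusted threshold and 896 an unadjusted p under 0.05, 2 members among the latter (SMC4 and CENPE). The DESeq2 Wald test gave 3 and 219 genes, and the replicate block gave 6 and 825 genes with 3 members higher. The block changed no call of a member at the adjusted threshold. Leaving out each library in turn, an unadjusted p under 0.05 was reached by 292 to 973 genes, by 0 to 8 members in the higher direction and by 0 in the lower, with 0 genes adjusted. The 8 members and the 973 genes came without VEZF1-2A 3. The median log2 fold change of the members ran from -0.01 to 0.14 and the difference in mean score from -0.02 to 0.13 over the same fits. The direction of single members turned as well, with ranges taken only for the members named in full. These were -0.28 to 0.021 for CDCA3, -0.10 to 0.045 for CDCA2, -0.074 to 0.0082 for CENPA and -0.10 to 0.24 for HMGB2. They were -0.011 to 0.20 for ANLN, -0.013 to 0.17 for CENPF and -0.14 to 0.14 for PSRC1. Among all 49 members, the number with a fold change above 0 was 38 in the main fit and 20 without VEZF1-WT 1. The cause was not tested. Over the other alternatives the median was 0.04 to 0.05 and the difference in score 0.04 to 0.05. The overlapping genes were left out as an alternative chosen after seeing the data. With 3 libraries a group, the upper bounds of the 95% intervals of single members ran from 0.07 (CBX5) to 0.44 (TTK). The lower bounds ran from -0.44 (CDCA3) to -0.03 (ECT2). Differences within these intervals were not excluded. The intervals take a normal distribution, without the few degrees of freedom of the test, and are thus somewhat too narrow.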
